A study of Mus musculus with 9 samples.

Results

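The CCN family is a small group of cysteine-rich proteins that cells secrete into the surrounding matrix. Its genes Ccn1 to Ccn5, known by the older symbols Cyr61, Ctgf, Nov, Wisp1 and Wisp2, were taken by symbol, 5 of the 55416 genes in the table of read counts. RNA-Seq was performed on AdvSca1-SM cells, progenitors of the arterial adventitia that derive from smooth muscle and carry the surface protein Sca1, sorted as YFP+ Sca1+ cells from arteries of pooled SM22α-Cre-YFP mice and then cultured. Of the 9 libraries, 3 came from vehicle-treated cells (Stem), 3 from cells given 5 ng/mL TGF-β1 (TGF-β) and 3 from cells given 5 ng/mL TGF-β1 with 50 µM PFI-3 (Both). PFI-3 is a compound directed at the bromodomain of Brg1, a chromatin remodeler. The replicates are described as independent, all groups had 0.1% DMSO, and treatment lasted 72 h. The treated cells were growth-arrested in stem cell medium with 0.1% FBS and then moved to DMEM with 0.1% FBS. The Stem cells are described as kept in stem cell medium, given for maintenance with 10% FBS and growth factors, while the labels carry the same arrest and treatment text for every sample, so whether Stem was also arrested is not settled. Medium and TGF-β1 therefore cannot be told apart between Stem and the treated groups, whereas PFI-3 is the named difference between TGF-β and Both.

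CCN proteins are called matricellular because they sit in the extracellular matrix and signal from there without building it. They are made of modules that resemble an IGF-binding domain, a von Willebrand factor type C repeat, a thrombospondin type 1 repeat and a C-terminal cystine knot, through which they contact integrins, proteoglycans, LRP co-receptors and growth factors. Ccn1 and Ccn2 are classical targets of YAP/TAZ and of serum, Ccn2 is also a well-known TGF-β target in fibroblasts and fibrotic tissue, Ccn4 and Ccn5 were first described as Wnt-induced genes, and Ccn3 and Ccn5 are often described as counterparts that restrain Ccn2.

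All 5 genes have an annotated model (GENCODE M21 on GRCm38, a build other than the GRCm39 of the counts), which places Ccn1 on chromosome 3, Ccn2 on chromosome 10, Ccn3 and Ccn4 on chromosome 15 and Ccn5 on chromosome 2. Ccn1, Ccn2, Ccn3 and Ccn4 each have 5 coding exons and 379, 348, 354 and 367 codons. Ccn5 has 4 coding exons and 251 codons, and is the family member known to lack the cystine knot module. Between 29 codons in Ccn5 and 40 in Ccn3 are TGC or TGT, the codons for cysteine. The stretch below is shown because it is the family's shared feature, the spaced cysteine codons of the IGF-binding module, and lies in coding exon 2 of each gene. Each line gives 24 bases of the coding strand, 5′ to 3′, with the cysteine codons in capitals.
Ccn1, chr3:145649331-145649354, minus strand: ggcTGCggcTGCTGTaaggtcTGC
Ccn2, chr10:24595966-24595989, plus strand: ggcTGCggcTGCTGCcgcgtcTGC
Ccn3, chr15:54746265-54746288, plus strand: ggcTGCtccTGCTGTccggtgTGC
Ccn4, chr15:66906545-66906568, plus strand: ggcTGTgaaTGCTGTaagataTGT
Ccn5, chr2:163825225-163825248, plus strand: ggcTGTggcTGCTGTcgagtgTGT

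The RefSeq promoter set used here (GRCm38.p6) held 1 of the 5 members, Ccn1, the member whose levels stood apart from the others below. The 250 bases before its start, at chr3:145649986-145650235 on the minus strand, are printed 5′ to 3′ with 3 motif matches in capitals, which do not overlap.
Ccn1 promoter: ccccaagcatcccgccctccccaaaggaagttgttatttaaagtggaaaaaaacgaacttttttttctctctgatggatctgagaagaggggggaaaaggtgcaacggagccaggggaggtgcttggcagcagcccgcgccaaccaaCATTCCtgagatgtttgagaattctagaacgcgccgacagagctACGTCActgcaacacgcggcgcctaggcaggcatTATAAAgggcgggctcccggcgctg
CATTCC, 103 bases before the start, is the reverse complement of GGAATG, the motif of the TEAD factors that YAP/TAZ bind, and 12.6% of the 32851 promoters of this length held it on either strand. ACGTCA, 59 bases before the start, is the reverse complement of TGACGT, the core of the cyclic AMP response element, held by 6.47% of promoters. TATAAA, 25 bases before the start, was held by 12.4%. The AP-1 motif TGANTCA and the SMAD motif CAGACA, held by 6.75% and 17.1% of promoters, had no match in this window. These are matches of letters, and binding was not measured here.

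Between 35686291 and 47741128 reads were counted per library, and 14879 genes passed the filter on low counts, all 5 members among them. Values are normalized counts, scaled to a library of average size with edgeR's TMM method; where genes are compared with each other they are divided by exon length (counts per kilobase). Below, rose and fell mark an adjusted p under 0.05 in edgeR's quasi-likelihood test over all tested genes, and called marks a gene that also changed by at least 2-fold. The library Stem 2 stood apart, with 4.70% of its reads on 1 gene without a symbol. That gene took 0.364% and 0.477% in the other Stem libraries and 0.978% to 2.32% in the treated ones. The members' values that rest on Stem are therefore also given without Stem 2. Of the markers of adventitial progenitors 5 of 6 were detected past the filter, with a summed level of 50989 to 59312 in the Stem libraries, 12195 to 12314 with TGF-β1 and 10605 to 11137 with PFI-3 added. The 4 myofibroblast markers summed to 325843 to 339144, 1116610 to 1194320 and 825822 to 872007. Endothelial markers summed to 49.2 to 232 normalized counts in any library. Of these 5 markers, Pecam1 and Cdh5 did not pass the filter and 3 did. Between Stem and TGF-β, Kdr was called higher (log2 fold change 4.97) and Tek (-1.31) and Emcn (-3.61) lower, named after their values were seen. Leukocyte markers summed to 19.3 at most and hepatocyte markers to 2.63 at most, although 1 protocol label speaks of hepatic tissue.

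In Stem cells 4 of the 5 genes were already among the most abundant transcripts. Per kilobase of exon, Ccn2 averaged 10865 ± 1965 (SD, n = 3), Ccn3 9885 ± 1011, Ccn1 7868 ± 251, Ccn5 5829 ± 468 and Ccn4 341 ± 38.5 counts. This put Ccn2 at rank 74, Ccn3 at 83, Ccn1 at 107, Ccn5 at 157 and Ccn4 at 4205 among 14843 tested genes with a known length. Ccn2 was above Ccn3 in each of the 3 Stem libraries, by a small margin, so that their ranges over libraries overlapped, while every other neighbouring pair was without overlap. In TGF-β the order was Ccn2 at 50432 ± 1529, Ccn5 at 21509 ± 337, Ccn3 at 20630 ± 566, Ccn1 at 7307 ± 374 and Ccn4 at 3816 ± 51.8 counts per kilobase, and here the ranges of Ccn5 and Ccn3 overlapped, although Ccn5 was above Ccn3 in each of the 3 libraries. Ccn2 was then the 12th gene in rank, and Ccn4 the 353rd. In Both the order was that of TGF-β, with Ccn2 at 48827 ± 1356, Ccn5 at 22327 ± 1265, Ccn3 at 16656 ± 1734, Ccn1 at 9110 ± 64.2 and Ccn4 at 3462 ± 79.0, and no neighbouring pair overlapped. The sixth gene of the family, Ccn6, had 0 reads in all 9 libraries, where 3 reads would be 2.63 to 3.26 normalized counts.

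**Figure D1:**
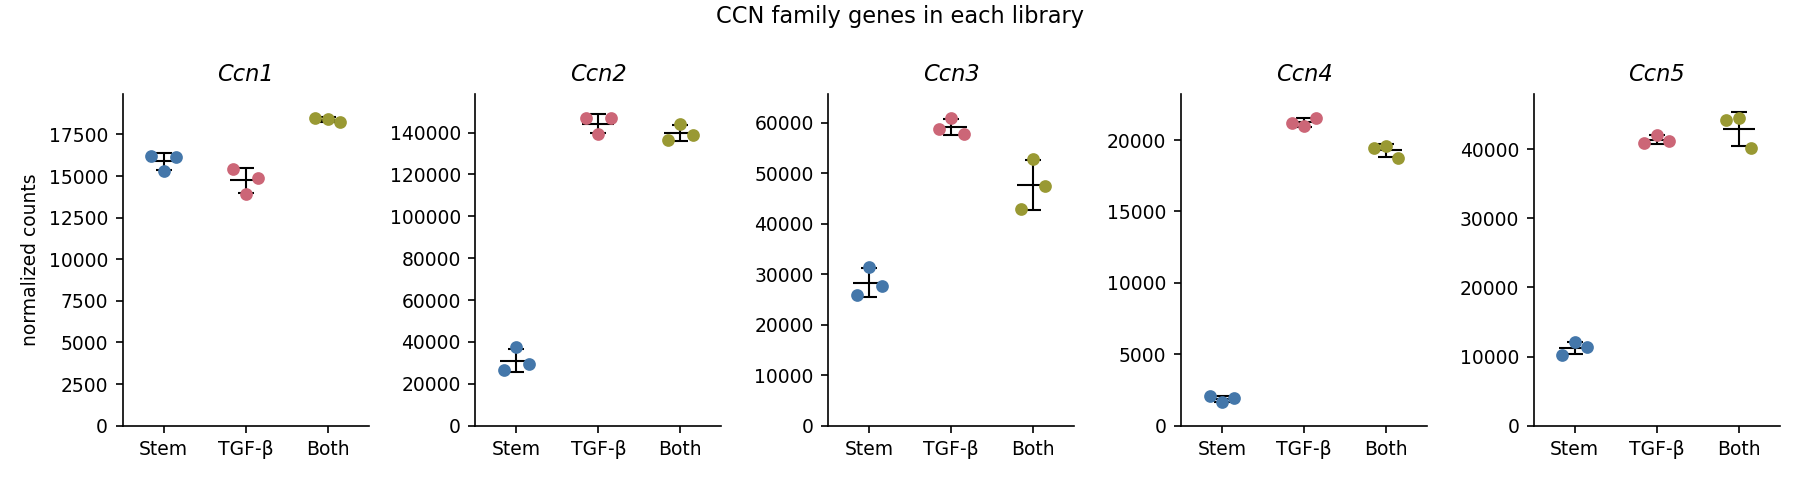
Normalized counts of Ccn1 to Ccn5 in each library; points are libraries, the long bar is the group mean and the whiskers 1 SD over 3 libraries, and each panel has its own axis from 0. Ccn2, Ccn3, Ccn4 and Ccn5 sit higher in all treated libraries than in Stem, whereas Ccn1 lies between 13942 and 18483 throughout.

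Between Stem and TGF-β the question is how the family differs between vehicle-treated progenitors, described as kept in stem cell medium, and cells given TGF-β1 in low serum. Ccn2, Ccn3, Ccn4 and Ccn5 rose past the 2-fold minimum, from 2.09-fold for Ccn3 to 11.2-fold for Ccn4, and Ccn1 did not. The 4 of 5 members called higher stand beside 10.6% of all tested genes called higher in TGF-β, 14.5% called lower and 25.1% called in either direction. By adjusted p alone, 4 of 5 members were higher and 1 lower, beside 37.3% and 37.7% of all tested genes and 75.0% in either direction. In bulk RNA, a change in how many cells express a gene and a change in RNA per cell cannot be told apart. Of 5 tested progenitor markers 4 were called lower and 1 higher, and all 4 myofibroblast markers rose. Both marker lists thus also differed between these groups. Of the 4 smooth muscle markers, which summed to 3278 to 4240 in the Stem libraries and 2960 to 3456 with TGF-β1, 2 fell, Myh11 (-1.58, called) and Lmod1 (-0.69), named after their values were seen. The part of these markers in the result was not tested.

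Ccn4, a matrix protein known from fibroblasts and bone that binds decorin and biglycan, had the largest fold change of the 5 members; in normalized counts the gap of Ccn2 was wider. It had 2109, 1681 and 1903 normalized counts in Stem and 21210, 20963 and 21537 in TGF-β. The lowest TGF-β library was thus far above the highest Stem library. The log2 fold change was 3.48 ± 0.0691 (SE), adjusted p = 1.07e-12 in edgeR, and 1.53% of tested genes had a larger value. Without Stem 2 it was 3.41.

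Ccn2, the connective tissue growth factor that promotes matrix production and adhesion, had 26485, 37352 and 29419 normalized counts in Stem and 146722, 139236 and 146897 in TGF-β. The Stem libraries differed more among themselves than the treated ones, and Stem 2 was the highest of them. The groups did not overlap, and the log2 fold change was 2.21 ± 0.0996 (SE), a 4.64-fold rise with adjusted p = 1.04e-09 in edgeR. Without Stem 2 it was 2.37. An antisense transcript that overlaps Ccn2, Gm15270, had 3 to 15 reads per library, at most 0.0593% of the Ccn2 reads.

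Ccn5, the member without the cystine knot, known as a growth-restraining protein of smooth muscle cells, had 10259, 12047 and 11338 normalized counts in Stem and 40866, 42112 and 41175 in TGF-β. Again the groups did not overlap, as for 76.8% of all tested genes. The log2 fold change was 1.88 ± 0.0604 (SE), 3.69-fold, adjusted p = 5.05e-11 in edgeR, and 1.94 without Stem 2.

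Ccn3, often described as opposing Ccn2 in matrix-producing cells, had 25828, 31526 and 27727 normalized counts in Stem and 58806, 60970 and 57790 in TGF-β. The rise was thus in the same direction as that of Ccn2 and smaller, at a log2 fold change of 1.06 ± 0.0801 (SE), 95% interval 0.89 to 1.24, adjusted p = 1.30e-07 in edgeR, and 1.15 without Stem 2. Its place past the 2-fold minimum is not secure, since a test against 2-fold itself (edgeR's TREAT) gave an adjusted p of 0.395. With scaling by total counts the value was 0.94, under the minimum, while the median of all genes moved to -0.12.

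Ccn1, an adhesive CCN protein that is rapidly induced by serum and by YAP/TAZ, had 16188, 15300 and 16168 normalized counts in Stem and 15435, 13942 and 14880 in TGF-β. These ranges overlapped, with 2 of the 3 TGF-β libraries below all Stem libraries. The fitted difference was small, a log2 fold change of -0.11 ± 0.0433 (SE), 95% interval -0.20 to -0.01, adjusted p = 0.0410 in edgeR. Without Stem 2 it was -0.13. Its adjusted p was under 0.05 in 7 of the 16 alternatives that can change this p; it was lost without the low-count filter, with only the 6 libraries compared, and on leaving out Stem 1, Stem 3, TGF-β 2, TGF-β 3 or any Both library, with values from 0.0664 to 0.237. In these cells Ccn1 therefore did not share the rise of the other 4 members, and its interval lies below each of theirs.

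**Figure D2:**
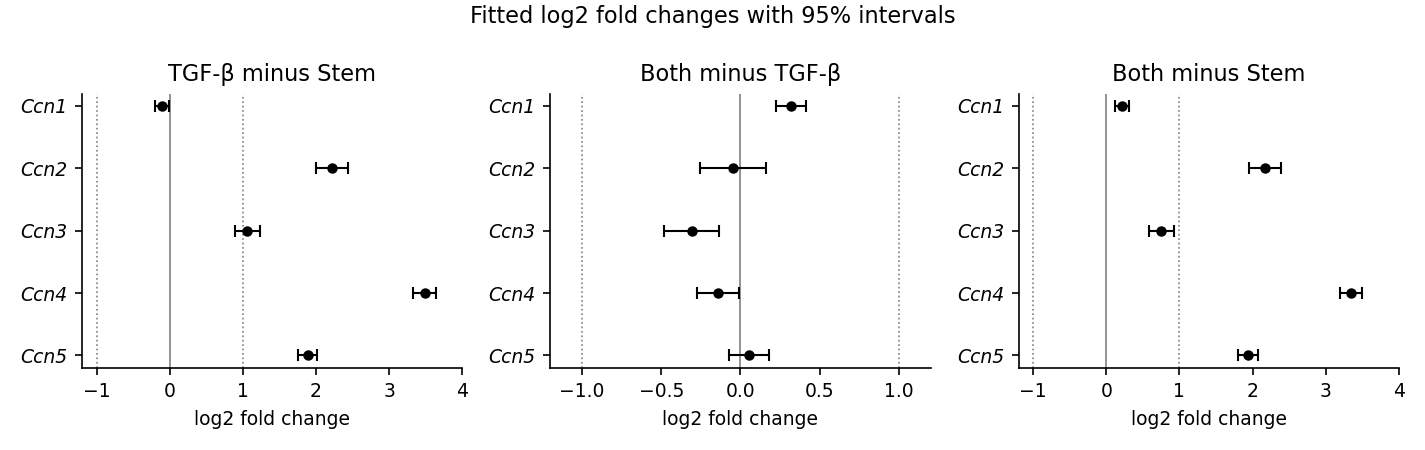
Fitted log2 fold changes (horizontal axis) of the 5 members in the 3 comparisons, with 95% intervals from edgeR; solid lines mark no difference and dotted lines 2-fold, and the middle panel has a narrower axis. The 4 members other than Ccn1 lie past the right dotted line for TGF-β minus Stem, while no member reaches either dotted line for Both minus TGF-β.

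Between TGF-β and Both the question is how PFI-3 alters the family in cells given TGF-β1. Ccn1 rose by 24.7% and Ccn3 fell by 19.3%, and both stayed under the 2-fold minimum, so that 0 of 5 members were called beside 0.632% of all tested genes. By adjusted p alone, 1 of 5 rose and 1 fell, beside 3.54% and 5.38% of all tested genes and 8.92% in either direction, and 3 of 5 had an unadjusted p under 0.05 in edgeR, as 24.1% of all tested genes did. DESeq2 also called 0 of 5. The summed myofibroblast markers were lower in Both, as given above. All 4 of them fell, and Postn was called (log2 fold change -1.74). Of 5 tested progenitor markers 1 rose and 2 fell, and Scara5 was called lower (-1.18). Of 4 smooth muscle markers 1 fell, Cnn1 (-0.63). Postn, Scara5 and Cnn1 were named after their values were seen. The part of these markers in the differences was not tested.

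Ccn1 had 15435, 13942 and 14880 normalized counts in TGF-β and 18483, 18453 and 18245 in Both. The Both libraries lay close together and above every TGF-β library; 32.7% of all tested genes were also without overlap between these groups. The log2 fold change was 0.32 ± 0.0433 (SE), 95% interval 0.22 to 0.41, adjusted p = 8.60e-04 in edgeR. Its adjusted p was under 0.05 in each of the 16 alternatives that can change it, with values from 0.28 to 0.35 as each library was left out.

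Ccn3 had 58806, 60970 and 57790 normalized counts in TGF-β and 42907, 52854 and 47597 in Both. Each Both library was below each TGF-β library, and the Both libraries spread more widely. The log2 fold change was -0.31 ± 0.0792 (SE), 95% interval -0.48 to -0.14, adjusted p = 0.0319 in edgeR. The adjusted p was 0.05 or more in 6 of the 16 alternatives that can change it, those without Stem 3, any TGF-β library, Both 1 or Both 3, with values from 0.0561 to 0.138, the last without Both 1, where the log2 fold change was -0.24.

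Ccn2, Ccn5 and Ccn4, the members with the largest rises in TGF-β, did not pass the threshold with PFI-3. Ccn2 had 136226, 143885 and 138971 normalized counts in Both, with 2 libraries below all TGF-β libraries. The log2 fold change was -0.05, 95% interval -0.25 to 0.16, adjusted p = 0.824 in edgeR. Ccn5 had 44213, 44509 and 40152 normalized counts in Both, on either side of the TGF-β libraries, with a log2 fold change of 0.05, 95% interval -0.07 to 0.18, adjusted p = 0.634 in edgeR. The intervals exclude a 2-fold difference of either gene in either direction.

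Ccn4 had 19477, 19565 and 18763 normalized counts in Both, each below all 3 TGF-β libraries. The log2 fold change was -0.14, 95% interval -0.27 to -0.01, and the adjusted p of 0.187 in edgeR missed the threshold. A fit of only the 6 libraries compared gave 0.0130 and a fit without Stem 2 gave 0.0327. The other 14 of the 16 alternatives that can change this p gave 0.0588 to 0.410 in adjusted p. For Ccn4, whose replicates lay close together, the call by adjusted p thus depended on which libraries entered the estimate of spread.

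Between Stem and Both, 3 of 5 members were called, all higher in Both, beside 9.55% of all tested genes called higher and 22.8% called in either direction. This comparison shares its Stem and Both libraries with the others, so its values are given side by side with theirs and add no separate evidence. Ccn4 had a log2 fold change of 3.34, Ccn2 of 2.17 and Ccn5 of 1.94, with adjusted p = 1.73e-12, 1.41e-09 and 4.61e-11 in edgeR. Ccn3 rose by 0.75 on the log2 scale, adjusted p = 3.24e-06 in edgeR, which is under 2-fold, where TGF-β alone had been just above it. Ccn1 was higher in Both than in Stem by 0.21, adjusted p = 8.18e-04 in edgeR, and with scaling by total counts by 0.10, adjusted p = 0.0916. That scaling moved the median of all genes to -0.11, and relative to this median Ccn1 was at 0.21. No member overlapped between Stem and Both, as for 74.7% of all tested genes, and all 5 passed by adjusted p alone, as 73.3% of tested genes did. Without Stem 2 the log2 fold changes between Stem and Both were 0.19, 2.33, 0.84, 3.27 and 2.00 for Ccn1 to Ccn5, and the counts of members called in the 3 comparisons were again 4, 0 and 3.

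These differences changed the makeup of the family. Summed over the 5 genes per kilobase, the family reached 34788 ± 3142 (SD, n = 3) in Stem against 103694 ± 1068 in TGF-β, and 100383 ± 3570 in Both, a 2.98-fold difference between Stem and TGF-β (3.13-fold without Stem 2). Ccn1 made up 22.8% of the sum in Stem and 7.04% and 9.08% in the treated groups TGF-β and Both. Ccn2 went from 31.1% to 48.6% and 48.7%, and was the largest share in every group. Ccn3 held 28.4%, 19.9% and 16.6%, so that its share was lower in the treated groups although its level was higher. Ccn5 held 16.8%, 20.7% and 22.2%, and Ccn4 0.992%, 3.68% and 3.45%. Without Stem 2 the Stem shares were 24.2%, 29.5%, 28.2%, 1.09% and 17.0% for Ccn1 to Ccn5. Shares sum to a whole, so a rise of Ccn2 lowers the others, and the exact values depend on the lengths used.

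**Figure D3:**
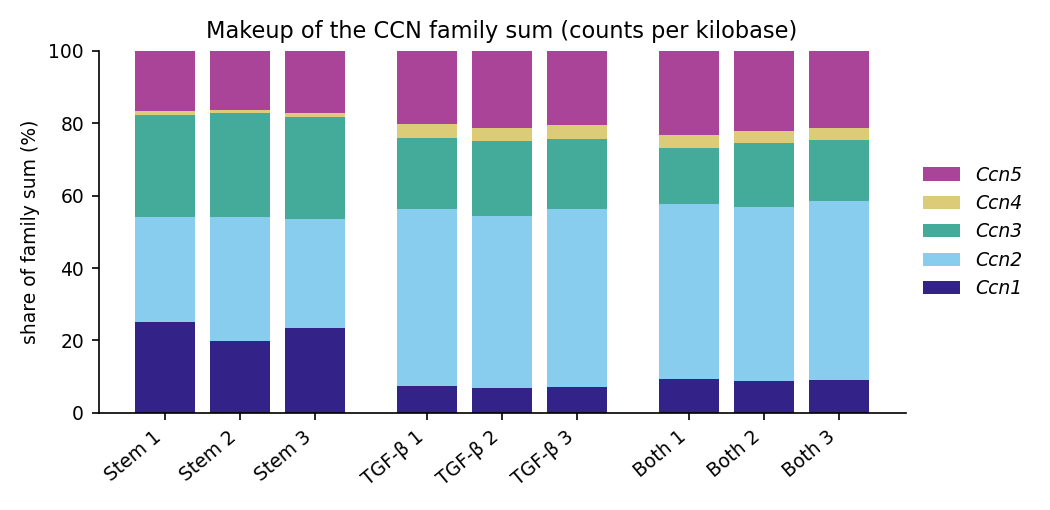
Share of each member in the summed counts per kilobase of Ccn1 to Ccn5 (vertical axis, percent), 1 bar per library. Ccn1 takes 19.8% to 25.1% of the sum in the Stem libraries, and Ccn2 is the largest segment in each library.

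Ratios within a library, which no scaling of libraries can move, gave the balance of Ccn2 against its often-described counterpart Ccn3. The log2 ratio of Ccn2 to Ccn3 reads was 0.04, 0.24 and 0.09 in Stem. It was 1.32, 1.19 and 1.35 in TGF-β, and 1.67, 1.44 and 1.55 with PFI-3 added. No groups overlapped: the ratio was lowest in Stem and highest in Both. The mean differed by 1.16 between Stem and TGF-β, by 0.27 between TGF-β and Both and by 1.43 between Stem and Both, each with p = 0.1 in a 2-sided exact permutation test, the smallest p that 3 libraries against 3 can give, so no p under 0.05 was possible. The log2 ratio of Ccn1 to Ccn2, computed after the values had been seen and without a test, averaged -0.95 ± 0.299 (SD, n = 3) for the Stem libraries, -3.29 ± 0.0373 for TGF-β and -2.92 ± 0.0408 for Both. That of Ccn1 to Ccn3 was -0.83 ± 0.190, -2.01 ± 0.108 and -1.37 ± 0.152. Without Stem 2, the Stem means of the 3 ratios were 0.06 for Ccn2 to Ccn3, -0.79 for Ccn1 to Ccn2 and -0.73 for Ccn1 to Ccn3. Both ratios with Ccn1 thus lay between the other groups' values in Both, whereas that of Ccn2 to Ccn3 was farther from Stem in Both than in TGF-β.

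**Figure D4:**
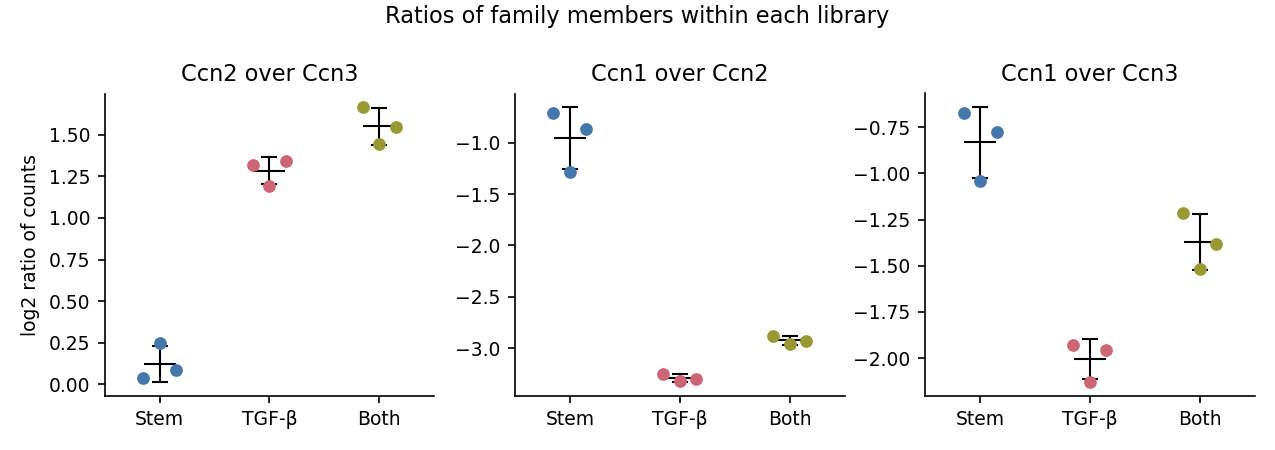
Log2 ratios of read counts between family members within each library, by group; points are libraries, long bars group means and whiskers 1 SD over 3 libraries, and the axes do not start at 0. The ratio of Ccn2 to Ccn3 runs upward from Stem (0.12 on average) through TGF-β (1.29) to Both (1.55).

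The genes around the family were counted in lists of known partners and targets. Among 14 tested receptors and co-receptors of CCN proteins, 4 were called higher and 3 lower in TGF-β than in Stem. Of all tested genes, 10.6% were called higher and 14.5% lower. The list median of the log2 fold change was -0.35 against 0.00 over all tested genes. Itga6 rose by 3.68 and Itgb3, whose product pairs with αv as a receptor of CCN proteins, by 2.42 on the log2 scale, with adjusted p = 3.14e-09 and 5.30e-10 in edgeR. Fgfr2 and the heparan sulfate proteoglycan Sdc4 fell, with log2 fold changes of -2.04 and -1.90. With PFI-3, 2 rose and 4 fell by adjusted p, all by less than 2-fold, beside 3.54% and 5.38% of all tested genes.

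Of the 12 growth factors and matrix proteins that CCN proteins bind, 4 were called higher and 2 lower in TGF-β. The list median was 0.75, and 10.6% and 14.5% of all tested genes were called higher and lower. Aggrecan (Acan) and Vegfa rose by 6.67 and 2.59 on the log2 scale, while decorin (Dcn) and Bmp4 had log2 fold changes of -2.74 and -1.47. In Both, the list median relative to TGF-β was -0.22, against 0.00 for all tested genes. By adjusted p, 7 of the 12 fell, beside 5.38% of all tested genes. Aggrecan (Acan) was the only one called, at 49.0 ± 1.19 (SD, n = 3) normalized counts in TGF-β and 13.3 ± 4.38 in Both, a log2 fold change of -1.88 with adjusted p = 8.89e-04 in edgeR. In Stem Acan was under the detection limit of 3 reads in every library, so the size of its rise in TGF-β is uncertain. This list holds Fn1, which is also a myofibroblast marker, and Tgfb2, which is also a YAP/TAZ target.

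Among 12 nuclear regulators of Ccn1 and Ccn2, which include YAP/TAZ, the TEADs, SRF with its cofactors and 3 SMADs, Tead4 was called higher (log2 fold change 1.66) and Smad3 lower (-1.61) in TGF-β than in Stem. With PFI-3, 1 passed by adjusted p, beside 8.92% of all tested genes. It was Wwtr1 (TAZ), at -0.14, named after its value was seen.

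Of 20 other YAP/TAZ targets, 4 were called higher and 2 lower in TGF-β than in Stem, beside 10.6% and 14.5% of all tested genes. The list median was -0.12, beside the -0.11 of Ccn1 and the 2.21 of Ccn2. Nuak2 (1.46) and Dock5 (1.33) had the largest rises, and Igfbp3 (-2.58) and Crim1 (-1.06) were the genes called lower. With PFI-3, 5 rose and 3 fell by adjusted p, each by less than 2-fold, beside 3.54% and 5.38% of all tested genes. The 5 that rose were Ankrd1 (0.56), Crim1 (0.33), Asap1 (0.30), Lats2 (0.20) and Amotl2 (0.19), and the 3 that fell were Gadd45a (-0.51), Fjx1 (-0.32) and Tgfb2 (-0.23), named after their values were seen.

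Of 11 TGF-β–SMAD targets, 5 were called higher and 2 lower in TGF-β, beside 10.6% and 14.5% of all tested genes. The list median was 0.75. Pmepa1 (2.90) and Skil (1.58), which restrain TGF-β signaling, had the largest rises, and Id1 (-2.21) and Tgfbi (-1.81) were the genes called lower. In Both, 3 fell relative to TGF-β by adjusted p, each by less than 2-fold, beside 5.38% of all tested genes. These 3, named after their values were seen, were Ltbp2 (-0.51), Id1 (-0.44) and Tgif1 (-0.22), beside the -0.31 of Ccn3 and the -0.05 of Ccn2.

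Wnt targets and serum-induced immediate early genes, the settings from which Ccn4 and Ccn1 were first known, gave no shared direction. Of 7 tested Wnt targets, 1 was called higher (Nkd2, 1.53) and 2 lower (Nkd1, -3.44, and Axin2, -1.83) in TGF-β than in Stem, where Ccn4 and Ccn5 rose. Between TGF-β and Both their adjusted p was 0.248 or more in edgeR. Of 12 immediate early genes, 2 were called higher (Atf3, 3.27, and Egr2, 1.00) and 1 lower (Dusp1, -2.76) in TGF-β than in Stem. Beside both lists, 10.6% of all tested genes were called higher and 14.5% lower. With PFI-3, 3 immediate early genes rose and 2 fell by adjusted p, each by less than 2-fold, beside 3.54% and 5.38% of all tested genes.

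**Figure D5:**
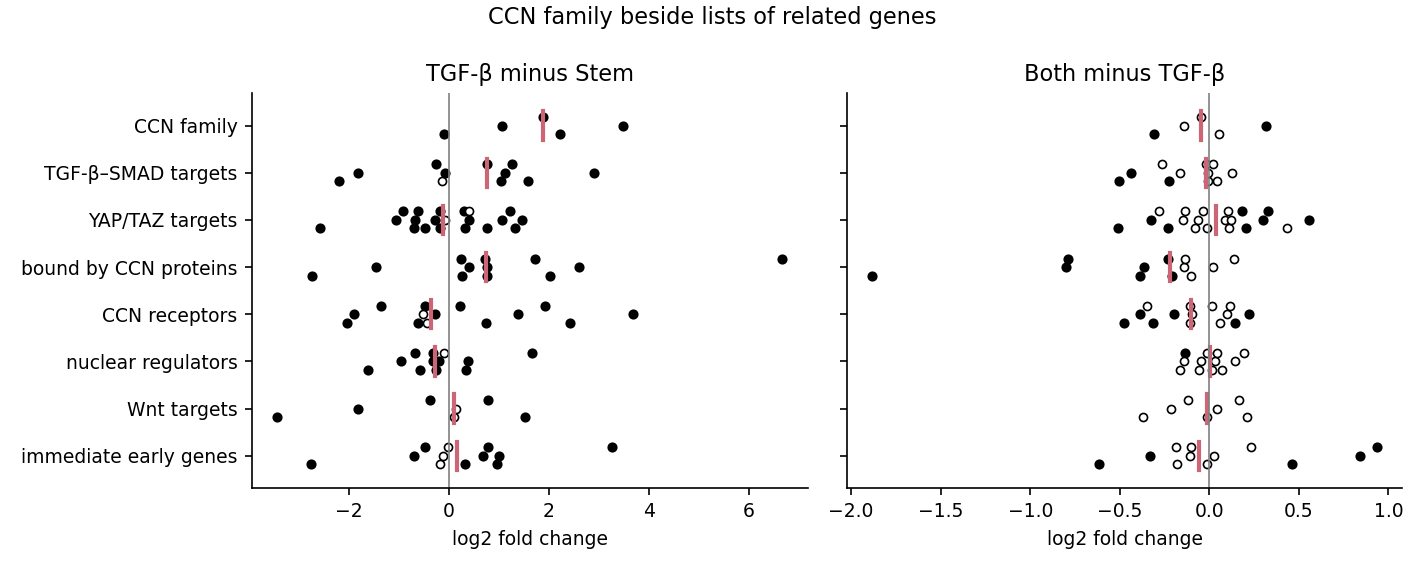
Log2 fold changes (horizontal axis) of the CCN family and of 7 lists of related genes for TGF-β minus Stem and Both minus TGF-β; points are genes, filled where the adjusted p was under 0.05, and bars are list medians. The CCN family median is 1.88 in the left panel and -0.05 in the right panel, which has a narrower axis.

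Members were closest to different genes in their pattern over the 9 libraries. Likeness was taken as the Euclidean distance between centred log2 normalized counts, over the 10898 genes whose mean was 100 normalized counts or more, and describes these 9 libraries, which share their groups. Among members, Ccn2 and Ccn5 were closest (0.505), and Ccn1 and Ccn4 farthest apart (4.80). Ccn2 was nearest to Ccdc68 (0.291), Timp1 (0.296), an inhibitor of matrix metalloproteases, and Ston2 (0.339). Ccn3 was nearest to Slc8a1 (0.132), a sodium-calcium exchanger, AW209491 (0.201) and Narf (0.210), which had log2 fold changes of -0.31, -0.35 and -0.27 between TGF-β and Both. Ccn4 was nearest to the calcium pump gene Atp2b4 (0.318), Slc2a6 (0.340) and Csdc2 (0.358), and Ccn5 to Kdelr3 (0.134), an ER retention receptor, Camkk1 (0.193) and Fam198b (0.198). For Ccn1, the flattest member, the nearest were Ccdc127 (0.124), Arhgef3 (0.171) and 0610009B22Rik (0.175), each higher in Both than in TGF-β by 0.22 to 0.25 on the log2 scale.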

How the data were processed

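Per the paper's methods, libraries came from a stranded, ribosome-depleted kit, with Flexbar for trimming and STAR for alignment (GRCm39); the submitters' processing notes instead name HISAT2 2.2.1, SAMtools 1.13 and HTSeq 0.11.3 with GRCm39, so the aligner behind this table is uncertain. Neither the strand setting nor the handling of multiply aligned reads is given in the sources used here. The authors deposited raw counts per Ensembl gene, 1 column per library, without normalization. Symbols were matched for 52083 of 55416 genes.

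Tests were run with edgeR 4.0.16 in R 4.3.3 (filterByExpr, TMM, quasi-likelihood test with Benjamini-Hochberg adjustment over 14879 genes, prior count 0.125) with the 9 libraries fitted together on group alone. A call needed an adjusted p under 0.05 and a change of more than 1 on the log2 scale. The biological coefficient of variation was 6.13%. Replicates of a group had Spearman correlations of at least 0.994 across genes. Normalized counts are scaled to a library of 41184338 reads. Lengths, coordinates and coding exons came from GENCODE M21 on GRCm38, and lengths are the union of exons. The log2 ratios added 0.5 to each count. Alternatives were DESeq2 1.42.0, other scalings and filters, a replicate block, a prior count of 2, edgeR's TREAT, no fold minimum, only the 6 libraries compared, other lengths and pseudocounts, and leaving out each library. TREAT tests another question, and the prior count and fold minimum leave p as it is, so 16 alternatives can change a member's p. Both tests were checked on simulated data. Intervals and floors cover counting error and the spread between these cultures of pooled mice only.

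The members and gene lists were chosen with earlier results of these data known. Named beside the members were genes of each list other than the marker lists. These were the 2 largest rises and 2 largest falls among those called between Stem and TGF-β, and any called between TGF-β and Both. The 3 genes nearest to each member were also named. Other genes, described as named after their values were seen, passed by adjusted p alone or are markers. A result for 1 item withheld for evaluation was left out.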

Additional observations from a re-analysis of the deposited data

How the results depend on the processing

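Directions of the 5 members were the same under every alternative run in all 3 comparisons. Between Stem and TGF-β, Ccn3 lost its call with total counts (0.94; 1.07 relative to the median of all genes, which this scaling moved) and with TREAT (1.06). TREAT left 2479, 4 and 2104 genes called between Stem and TGF-β, TGF-β and Both, and Stem and Both, in place of 3739, 94 and 3385. Without the fold minimum these were 11158, 1327 and 10900, the members called 5, 2 and 5, and the values that then passed were -0.11, 0.32 and 0.21 for Ccn1 in that order, and -0.31 and 0.75 for Ccn3 in the last 2; the values themselves do not move under that choice. Without the filter on low counts 163 genes were called between TGF-β and Both.

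Leaving out each library gave 3826 to 3944, 68 to 126 and 3435 to 3618 genes called, with 4, 0 and 3 members called each time. Log2 fold changes then ran, between Stem and TGF-β, from -0.13 to -0.06 for Ccn1, 2.11 to 2.37 for Ccn2, 1.00 to 1.15 for Ccn3 (lowest without Stem replicate 1), 3.41 to 3.57 for Ccn4 and 1.83 to 1.94 for Ccn5. Between TGF-β and Both they ran from 0.28 to 0.35, -0.07 to -0.03, -0.39 to -0.24, -0.15 to -0.12 and 0.03 to 0.10 for Ccn1 to Ccn5, and between Stem and Both from 0.19 to 0.23, 2.07 to 2.33, 0.68 to 0.84, 3.27 to 3.43 and 1.88 to 2.00. The differences in the log2 ratio of Ccn2 to Ccn3 ran from 1.12 to 1.22, 0.21 to 0.32 and 1.37 to 1.49. By adjusted p, Ccn1 between Stem and TGF-β was lost without Stem replicates 1 (0.0994) and 3 (0.120), TGF-β replicates 2 (0.237) and 3 (0.0968) and each Both replicate (0.0664 to 0.0723), without the low-count filter (0.0852) and with only 6 libraries (0.0793); Ccn3 between TGF-β and Both was lost without Stem replicate 3 (0.0561), TGF-β replicates 1 (0.0866), 2 (0.122) and 3 (0.0819) and Both replicates 1 (0.138) and 3 (0.0964), all in edgeR.

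Shares of the family sum from counts not divided by length were, for Ccn1 to Ccn5, 18.1%, 35.0%, 32.1%, 2.17% and 12.7% in Stem, 5.25%, 51.4%, 21.1%, 7.56% and 14.7% in TGF-β, and 6.87%, 52.1%, 17.8%, 7.19% and 16.0% in Both. With the longest annotated transcript, Ccn3 held 26.6% and Ccn5 17.6% in Stem, Ccn1 6.40%, Ccn2 50.8% and Ccn3 18.1% in TGF-β, and Ccn1 8.24%, Ccn2 50.7% and Ccn3 15.0% in Both.

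Whether replicate numbers pair the libraries was not settled, since the labels tie the numbers to no shared source. Correlations of deviations ran from -0.0539 to 0.196 between same-numbered libraries and from -0.181 to 0.167 between differently numbered ones. Libraries numbered 2 had correlations of 0.166 (Stem and TGF-β), 0.139 (TGF-β and Both) and 0.196 (Stem and Both). With the number as a replicate block, 120 genes were called between TGF-β and Both and members called were again 4, 0 and 3; Ccn1 was at 0.32 and Ccn3 at -0.31 between TGF-β and Both, with adjusted p = 6.31e-05 and 5.19e-04 in edgeR.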
